A study of Homo sapiens with 4 samples.

Results

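Strong distal regions are stretches of open chromatin with a high signal that lie far from the ends of every protein-coding gene, the usual place to look for enhancers. They were chosen by 2 measured or mapped properties: a mean normalized read count of 100 or more over the 4 libraries in the authors' deposited table, and a distance of more than 10 kb from either end of every RefSeq protein-coding gene of GRCh38. The rule kept 1366 of the 125986 listed regions and of the 90929 nuclear regions at that distance. All 1366 lay within the 11185 regions that the authors tested, and they made up 12.2% of them. Chromatin accessibility had been measured by ATAC-seq in A375, an established human melanoma cell line. The treated group was given octanoate, a fatty acid of medium chain length, at 1 mM for 48 h, and the control group the vehicle isopropanol, with 2 libraries a group. The labels do not say whether the libraries of a group came from separate cultures, so the p-values may measure technical spread alone. The deposited table has 0 columns of values per library, and the depth of each library is unknown here.

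In ATAC-seq the transposase Tn5 cuts DNA that is free of nucleosomes, so the read count of a region reflects how open it is and over what width. Enhancers are such open stretches: transcription factors bind there and raise the output of promoters that can be far away, and the nearest gene need not be the one they act on. Open chromatin far from gene ends also includes alternative promoters inside long genes, promoters of noncoding RNAs, and bound insulator sites. Only 1065 of the 1366 strong distal regions overlapped neither the 300 bases at an annotated start nor a copy of mitochondrial DNA. The name candidate enhancer thus fits a part of them at most. Every gene below is named as the nearest protein-coding gene, a matter of position.

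Among the strong distal regions, 9 with an adjusted p under 0.05 held a whole annotated start window, and these windows are the part of the regions whose sequence could be read. A start window is the RefSeq GRCh38.p14 sequence from 250 bases before to 50 bases after an annotated transcription start. The 7 below were chosen to show how different such starts are: 6 windows inside regions that rose after octanoate, and last the start of MIR17HG, the host gene of the miR-17 to miR-92 cluster, which stood in 1 of the strongest regions and did not pass the test. Each reads 5′ to 3′ on the strand named. Capitals mark every match, on either strand, to AP-1 TGANTCA, CRE TGACGTCA, M-box TCACGTG, SOX AACAATG, TEAD ACATTCC, RUNX TGTGGTT, ETS CCGGAAG, the CTCF core AGGGGGC, the GC box GGGGCGG and TFAP2 (GCC and GGC with any 3 bases between), and matches may overlap.
LOC105373480, chr2:740636-740935, plus strand: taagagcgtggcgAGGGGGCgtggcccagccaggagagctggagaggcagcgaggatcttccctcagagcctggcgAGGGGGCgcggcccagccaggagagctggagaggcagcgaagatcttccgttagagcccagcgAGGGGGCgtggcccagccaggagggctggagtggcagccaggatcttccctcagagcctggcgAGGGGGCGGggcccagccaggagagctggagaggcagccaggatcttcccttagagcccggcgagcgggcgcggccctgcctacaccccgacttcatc
LOC124901788, chr7:155951035-155951334, plus strand: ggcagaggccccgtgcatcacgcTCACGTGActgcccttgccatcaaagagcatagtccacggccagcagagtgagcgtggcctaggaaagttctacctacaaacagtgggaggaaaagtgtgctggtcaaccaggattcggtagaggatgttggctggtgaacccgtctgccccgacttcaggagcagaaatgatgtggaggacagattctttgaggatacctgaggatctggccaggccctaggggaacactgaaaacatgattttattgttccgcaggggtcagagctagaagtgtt
ZBTB38, chr3:141368254-141368553, plus strand: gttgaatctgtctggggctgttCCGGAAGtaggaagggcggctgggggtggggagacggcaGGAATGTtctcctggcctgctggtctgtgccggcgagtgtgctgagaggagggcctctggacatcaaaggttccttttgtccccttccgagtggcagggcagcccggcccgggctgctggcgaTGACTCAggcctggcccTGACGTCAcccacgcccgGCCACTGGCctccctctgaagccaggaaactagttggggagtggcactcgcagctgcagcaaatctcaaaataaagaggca
MCF2L, chr13:113044396-113044695, plus strand: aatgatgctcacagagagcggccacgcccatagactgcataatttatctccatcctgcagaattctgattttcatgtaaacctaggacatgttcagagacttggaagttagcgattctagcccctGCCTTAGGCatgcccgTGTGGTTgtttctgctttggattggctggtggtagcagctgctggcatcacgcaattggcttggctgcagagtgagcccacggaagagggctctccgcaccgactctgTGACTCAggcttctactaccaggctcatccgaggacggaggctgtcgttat
LOC124904554, chr1:234657148-234657447, minus strand: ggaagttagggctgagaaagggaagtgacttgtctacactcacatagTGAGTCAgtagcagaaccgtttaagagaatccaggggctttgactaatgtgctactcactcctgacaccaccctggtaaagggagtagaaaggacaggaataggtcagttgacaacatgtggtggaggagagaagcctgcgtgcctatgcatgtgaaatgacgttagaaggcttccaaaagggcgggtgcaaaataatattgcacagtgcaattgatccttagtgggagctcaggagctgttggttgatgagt
LOC124901783, chr7:155205454-155205753, plus strand: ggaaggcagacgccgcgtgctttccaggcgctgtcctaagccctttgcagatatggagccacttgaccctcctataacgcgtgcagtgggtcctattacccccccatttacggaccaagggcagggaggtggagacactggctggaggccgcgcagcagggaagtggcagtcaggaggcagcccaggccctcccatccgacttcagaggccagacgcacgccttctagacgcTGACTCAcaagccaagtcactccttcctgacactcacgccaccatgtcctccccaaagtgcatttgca
MIR17HG, chr13:91347437-91347736, plus strand: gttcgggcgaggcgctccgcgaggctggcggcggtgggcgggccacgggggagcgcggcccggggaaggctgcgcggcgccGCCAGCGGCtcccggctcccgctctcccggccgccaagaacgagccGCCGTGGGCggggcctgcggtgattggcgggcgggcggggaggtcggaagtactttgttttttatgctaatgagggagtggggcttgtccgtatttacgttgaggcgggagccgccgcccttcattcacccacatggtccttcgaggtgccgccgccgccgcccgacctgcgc
The LOC105373480 window is a tandem repeat with a period of 63 bases and 83.5% identity between successive copies, and it carries the CTCF core 4 times, the last overlapping a GC box. It was the only 1 of 418 windows inside strong distal regions with at least 70% identity at any period from 10 to 100 bases, against 110 of all 35116 RefSeq start windows (0.313%). The LOC124901788 window holds TCACGTGA, a palindrome that matches the searched letters TCACGTG once on each strand. The name M-box stands here for these letters alone. The ZBTB38 window holds an ETS, a TEAD, an AP-1, a CRE and a TFAP2 match. Of the 10 windows inside regions past the threshold, 4 held AP-1 letters (ZBTB38, MCF2L, LOC124904554 and LOC124901783), 3 TFAP2, 2 the GC box, 1 each of CRE, the M-box, TEAD, RUNX, ETS and the CTCF core, and 0 SOX. Over all 418 windows in strong distal regions the shares were 8.85% for AP-1, 30.9% for TFAP2 and 43.8% for the GC box. All 4 windows with AP-1 letters are printed. Those not printed are LOC102724446 and LOC124900609, each with 0 matches, LINC02848 and another ZBTB38 window. The LOC124900609 window had 64.5% identity at a period of 38 bases, under the limit of 70%. A match describes these letters and is not a measured binding site.

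Over all 418 windows that lay whole inside strong distal regions, GC content had a median of 66.0%, against 60.8% of 988 windows in weaker distal regions (mean of 30 to 100), 67.3% of 5203 windows in equally strong regions near genes and 58.7% of all windows. CpG dinucleotides had medians of 25.5, 18, 29 and 14 in the same order. AP-1 letters stood in 8.85% of windows in strong distal regions, 15.1% in weaker distal regions, 3.33% in regions of the same strength near genes and 7.71% of all RefSeq windows. The GC box was held by 43.8%, 34.9%, 56.9% and 30.8% in that order, so among the 3 sets of regions its order was the reverse of that of AP-1. The CTCF core was held by 16.0%, 16.0%, 22.3% and 14.4%, and the M-box by 5.50%, 3.44%, 6.15% and 3.71%. ETS letters were held by 10.8%, 11.6%, 17.3% and 10.3% and TFAP2 by 30.9%, 26.8%, 34.5% and 23.2%. The SOX letters were held by 2.39%, 4.15%, 1.36% and 3.33%, TEAD by 2.39%, 3.14%, 1.86% and 3.46%, RUNX by 3.35%, 5.67%, 2.25% and 4.27%, and CRE by 1.91%, 2.63%, 3.61% and 1.85%. Windows of strong distal regions were thus richer in CpG and GC boxes than windows of weaker ones and held AP-1 letters at a lower share, and for GC content, CpG, AP-1 and the GC box they lay between the weaker distal windows and those near genes. These are counts over windows with no test.

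The mean normalized read count of the strong distal regions had a median of 126 and a middle range of 110 to 155 in the authors' deposited table. Only 135 of the 1366 reached 200. The 3 regions just inside the limit of 100 were inside FGF14 (mean 100.04, log2 fold change -0.02), near SSU72L5 (mean 100.09, 0.29) and inside VPS13D (mean 100.10, -0.16). The 3 just outside were near SORCS1 (mean 99.97, 0.11), inside SPTLC3 (mean 99.94, 0.05) and near HDDC2 (mean 99.90, -0.01). These fold changes are octanoate over vehicle. Strong distal regions were wide, with a median of 1603 bp (range 579 to 10596) against 889 bp in the 12882 weaker distal regions and 1821 bp in the 3860 equally strong regions within 10 kb of a gene end. Their signal was also denser, with a median of 83.5 normalized reads per kb against 52.3, and near to the 81.6 per kb of those near gene ends. The mean chose the regions, so their signal is a description. They lay a median of 54.1 kb from the nearest gene end, and 639 (46.8%) were inside a protein-coding gene, against 44.1% of the weaker distal regions.

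A part of the strong distal regions lay at starts. A start was taken to fall in a region that overlapped any part of its start window of 300 bases. Strong distal regions were also wider than weaker ones, and the part of width in these shares was not tested. A RefSeq start of a protein-coding gene, here always an internal or alternative one because the gene's outer end was over 10 kb away, fell in 182 of them (13.3%), against 3.51% of the weaker distal regions. A start of a noncoding gene alone fell in a further 108 (7.91%), against 3.60%. In regions of the same strength near gene ends, 80.1% held a start of either kind. Along the distal regions the share with a protein-coding start rose from 0.299% at a mean under 10 to 2.19% at 30 to 50, 8.32% at 75 to 100, 11.2% at 100 to 150 and 22.2% at 200 to 300. The 27 distal regions at 300 or more departed from this order, with 3 (11.1%) over a protein-coding start and 7 over a noncoding start alone. Well-known internal starts in strong distal regions were those of RTN4, the neurite outgrowth inhibitor (mean 262), and of the transcription factor gene NFIB (mean 255).

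**Figure D1:**
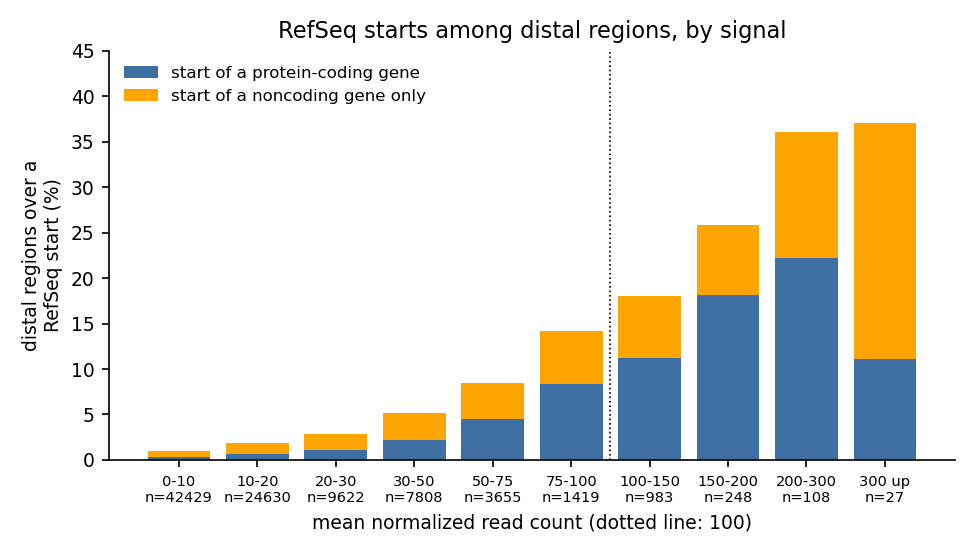
Share of distal regions that overlap a RefSeq start window (vertical axis, percent) by mean normalized read count (horizontal axis, with the number of regions in each bin). The dotted line marks the limit of 100. Blue bars are starts of protein-coding genes and orange bars, stacked on them, starts of noncoding genes alone; the blue share goes from 0.299% in the lowest bin to 22.2% at 200 to 300 and is 11.1% in the last bin of 27 regions.

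The very strongest strong distal regions overlapped copies of mitochondrial DNA in the nuclear genome. The annotation places mitochondrial pseudogenes in 12 of the 1366, and these included 4 of the 5 highest means. The highest was chr1:628986-635021, with a mean of 5314 and annotated mitochondrial pseudogenes over 83.5% of its length. The next were chr17:22521212-22524692 with 2353, chr5:134923259-134928608 inside PCBD2 with 1524, and chr5:100046262-100054724 with 697. The annotated share of the length was 35.9% in this chr17 region and ran from 18.3% to 92.2% over the 12. The 12 held 5.49% of the summed mean signal of all 1366. Their log2 fold changes ran from 0.06 to 0.39 with a median of 0.25, and 0 passed the test of the authors' deposited table (DESeq2, Benjamini-Hochberg), where 5 of the 12 (41.7%) were higher at an unadjusted p under 0.05, against 28.7% of all strong distal regions and 14.8% of all tested regions. The single region over the mitochondrial genome itself had a mean of 531681 and a log2 fold change of 0.10 (SE 0.08). Whether reads of mitochondrial origin were counted in these nuclear copies was not tested.

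Another repeated family stood among the strongest regions. FAM86 pseudogenes, copies of a family of lysine methyltransferase genes, lay in 10 strong distal regions with means of 100 to 569. The strongest, at FAM86DP (chr3:75432615-75436454), had the highest mean apart from mitochondrial copies, 569, and a log2 fold change of 0.29 (SE 0.11). Over the 10 the log2 fold changes ran from 0.04, in a second FAM86DP region, to 0.53, and 1 passed, beside 3.22% of all strong distal and 1.02% of tested regions. That was FAM86KP (chr4:9151990-9154189), which rose by 0.53 (SE 0.14, adjusted p = 0.0259, DESeq2 in the authors' deposited table). FAM86EP had 0.49 (adjusted p = 0.0758, DESeq2) and did not pass. In all, 64 strong distal regions (4.69%) overlapped an annotated pseudogene, against 2.19% of the weaker ones. The 64 include the 12 mitochondrial copies. Among regions without a start or a mitochondrial copy the shares were 3.85% and 2.09%. Strong regions were also wider, with a median of 1603 bp against 889 bp, and the part of width in this was not tested. Near-identical copies can share or split reads depending on the authors' counting.

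After octanoate the strong distal regions had a median above that of all tested regions and close to that of all nuclear regions, and 44 of them passed the test. Their log2 fold change had a median of 0.24 (middle range 0.11 to 0.38), and 1226 (89.8%) were above 0 in the authors' deposited table, against 85.7% of all tested nuclear regions and 88.8% of the strong regions near genes. The median of all tested regions was 0.19, so the strong distal regions lay 0.06 above it. The median of all 125985 nuclear regions, tested or not, was 0.23. By the Benjamini-Hochberg adjusted p of DESeq2, 44 of the 1366 (3.22%) passed 0.05, against 1.02% of all tested regions. The limit of 100 on the mean takes in both groups, so a rise could itself bring a region over it. The implied vehicle mean was under 100 in 316 of the 1366 and in 14 of the 44, and the implied octanoate mean was under 100 in 20. These regions entered through the group where they were higher, so their share past the threshold supports nothing by itself. With an implied mean of 100 or more asked of both groups, 30 of 1030 strong distal regions passed (2.91%), with a median of 0.21, against 51 of all 4435 nuclear regions under the same limit (1.15%), with a median of 0.17. The 44 had all gained signal with octanoate, and 0 had lost it. At an unadjusted p under 0.05 in the same DESeq2 table, 392 (28.7%) were higher and 1 was lower. Of all tested regions 14.8% were higher and 0.107% lower, and of the 2595 tested weaker distal regions 19.2% and 0.385%. The 44 were 38.6% of the 114 regions past the threshold in the table. Their log2 fold changes ran from 0.40 to 0.98 with a median of 0.69, and 0 reached a doubling. When every fold change was set relative to the tested median, 2 strong distal regions still passed, inside PTPRN2 and PCNX2 (both adjusted p = 0.0342, normal test from the deposited standard errors), where 0.0447% of all tested regions passed upward. Counted in either direction, 4 of the 2595 tested weaker distal regions passed as well, and 0 of the 3860 strong regions near gene ends.

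**Figure D2:**
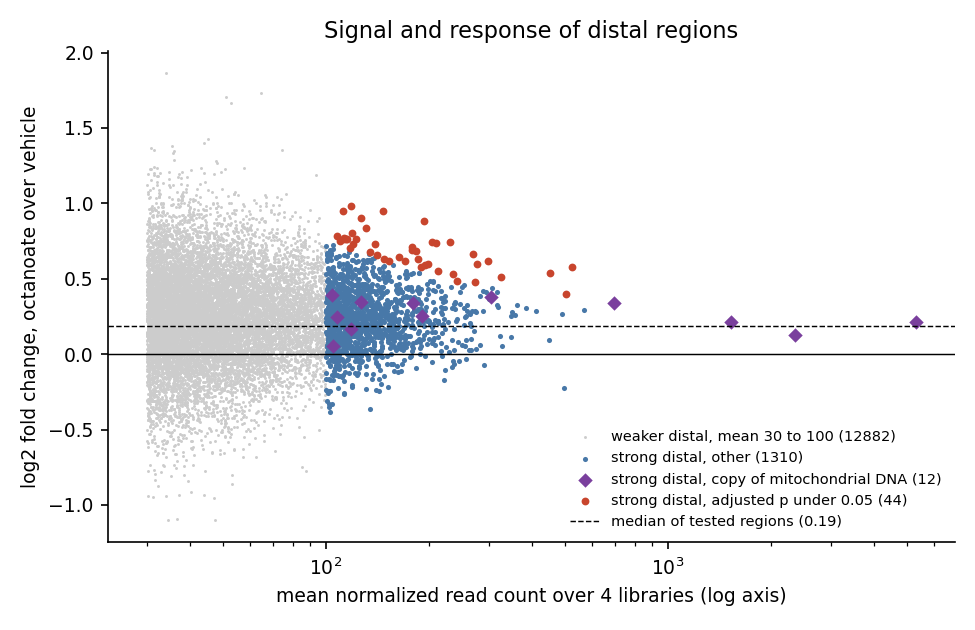
Log2 fold change, octanoate over vehicle (vertical axis), against mean normalized read count on a log axis (horizontal) for distal regions with a mean of at least 30, 1 point a region. Red points are the 44 strong distal regions with an adjusted p under 0.05, purple diamonds the 12 copies of mitochondrial DNA, blue the other strong and grey the 12882 weaker distal regions; the dashed line is the tested median of 0.19, and all red points lie at 0.40 or above.

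By mean signal the medians were close, and the numbers past the threshold were not. The median log2 fold change of weaker distal regions was also 0.24, and the strong ones differed from them by -0.0014. With region width balanced in 4 bins, the difference was 0.038. Of the weaker set 2595 regions were tested, with a median log2 fold change of 0.25 and a median SE of 0.24, against an SE of 0.19 in the strong set, and 34 of them (1.31%) passed. Regions as strong as these but near gene ends had a lower median of 0.18, by 0.06, and 28 of 3860 (0.725%) passed. Among regions outside genes alone, 727 distal and only 139 near a gene end, that difference was 0.00080. With an implied mean of 100 or more asked of both groups, it was 0.04, and the strong set then lay 0.04 below the weaker set, which was left as it was. Among the strong distal regions, the median was 0.24, 0.23, 0.25 and 0.25 over 4 equal groups from lowest to highest mean. The numbers past the threshold were 1, 11, 8 and 24 (0.292%, 3.23%, 2.35% and 7.02%). They stand beside 3.22% of all strong distal and 1.02% of all tested regions. The median SE fell from 0.21 in the lowest of the 4 to 0.16 in the highest. The SD of the log2 fold changes over strong distal regions was 0.20, close to the median SE of single regions. No test of these differences between sets was possible without values per library, and regions are not replicates.

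Regions over starts had lower medians than the others. For the 182 over a protein-coding start the median log2 fold change was 0.17, and 2 passed (1.10%), inside ZBTB38 and MCF2L. The MCF2L region had an implied vehicle mean of 85.8, under the limit on the mean. The 107 over a noncoding start alone, leaving out 1 mitochondrial copy, had a median of 0.21, and 7 passed (6.54%). Of these 7, the region nearest to IRF2BP2 had an implied vehicle mean of 83.3, also under the limit. The 1065 with neither a start nor a mitochondrial copy had a median of 0.26, and 35 passed (3.29%). The same order held in the weaker distal regions, with medians of 0.11, 0.21 and 0.25. Near gene ends, strong regions with a start had a median of 0.18 and those without one also 0.18, while 0.485% of the first and 1.69% of the second passed. Strong distal regions without a start had a median of 0.26 inside genes and 0.26 outside them. Among named internal starts, RTN4 had a log2 fold change of 0.03, UBE2D3 -0.07, KDM4C 0.12, LARP1 0.28 and SCHIP1 0.29, and the start of MIR17HG 0.09. None of these 6 passed, and the counts in these groups stand beside 3.22% of all strong distal and 1.02% of all tested regions.

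**Figure D3:**
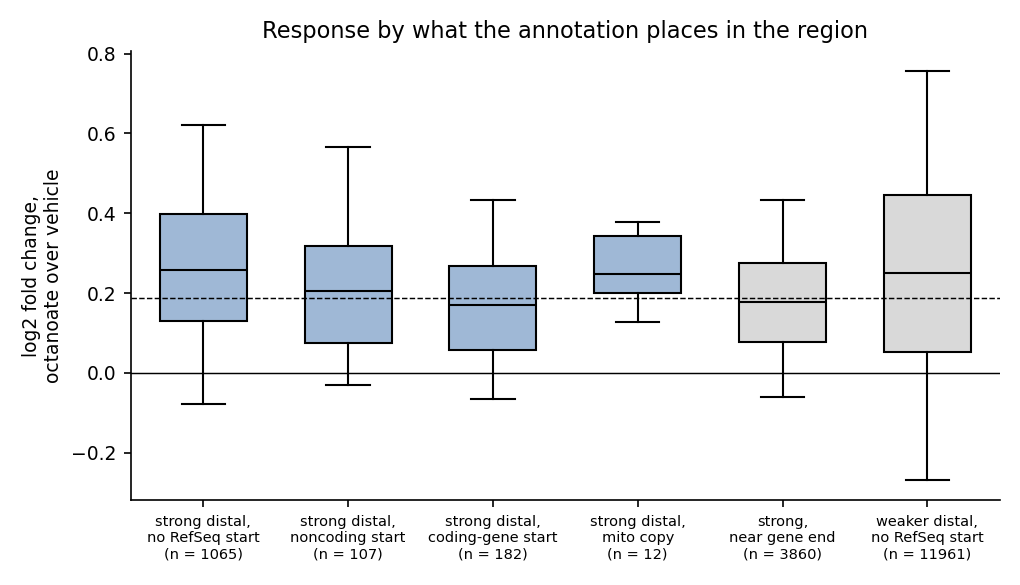
Log2 fold change, octanoate over vehicle (vertical axis), for the 4 kinds of strong distal region (blue boxes), strong regions near gene ends and weaker distal regions without a start (grey boxes). Lines in the boxes are medians, boxes the middle 50% and whiskers the 5th to 95th percentile of regions; the dashed line is the tested median of 0.19, and the median falls from 0.26 without a start to 0.17 over a protein-coding start.

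The median fold change was higher where the signal was denser. Over 4 equal groups by normalized reads per kb, from the least dense to the densest, strong distal regions had median log2 fold changes of 0.18, 0.23, 0.26 and 0.30, and 6, 5, 9 and 24 passed (1.75%, 1.47%, 2.64% and 7.02%), beside 3.22% of all strong distal and 1.02% of tested regions. The same order held near gene ends, with 0.12, 0.16, 0.18 and 0.23, and in weaker distal regions, with 0.18, 0.22, 0.26 and 0.30. Width ran the other way: over 4 equal groups from narrowest to widest, the medians of strong distal regions were 0.29, 0.25, 0.22 and 0.20. Density is the mean divided by width, so these are not separate measurements. Distance from the gene end made little difference, with a median of 0.25 at 10 to 20 kb and of 0.25 at 100 to 500 kb.

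**Figure D4:**
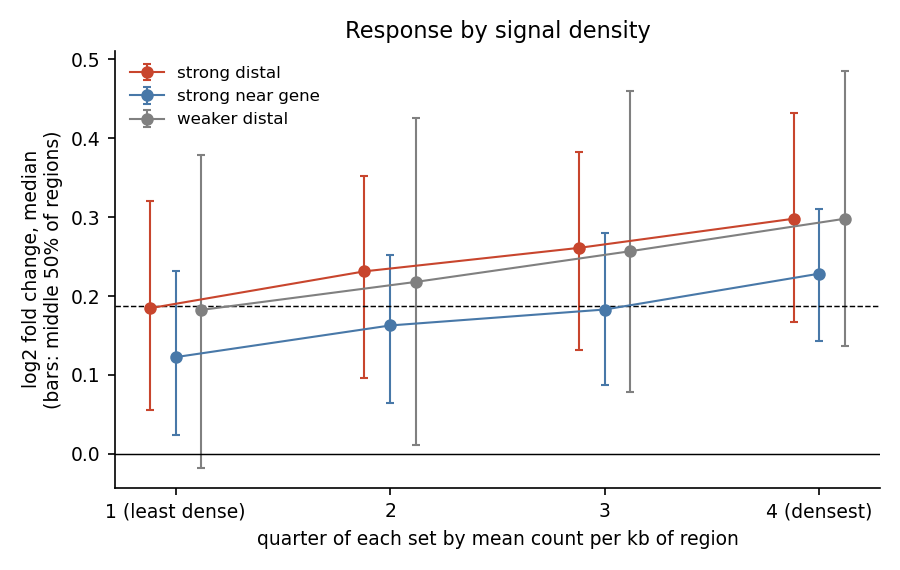
Median log2 fold change, octanoate over vehicle (vertical axis), for 4 equal groups of each set by mean normalized reads per kb of region (horizontal axis); bars span the middle 50% of regions, not replicate error. The medians of strong distal regions (red) go from 0.18 to 0.30, those of strong regions near genes (blue) from 0.12 to 0.23, and those of weaker distal regions (grey) from 0.18 to 0.30.

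The 10 largest rises among the 44 lay inside a protein-coding gene in 5 cases and 19.5 to 518 kb from one in the other 5, and 9 of the 10 held no RefSeq start. Group means are given as implied by the deposited mean and fold change for equal groups, because no library's own value is in the table. In 8 of the 10 the implied vehicle mean was under 100, all but PTPRN2 and PCNX2, so these 8 reached the limit through the octanoate group. The region with the lowest adjusted p of these was chr1:233112676-233114462 inside PCNX2, a pecanex family membrane protein gene, with an implied mean of 136 in vehicle and 251 in octanoate (log2 fold change 0.88, SE 0.16, adjusted p = 0.000119, DESeq2). The region inside PTPRN2, a protein of secretory granules, went from an implied 100.6 to 194 (0.95, SE 0.18, adjusted p = 0.000154, DESeq2). The region inside TRAPPC9, a subunit of a vesicle-tethering complex, had the largest rise, 0.98 (SE 0.21), from 79.7, under the limit, to 157. ZP4, an egg coat glycoprotein gene 518 kb from its region, was the nearest gene to a rise of 0.95 (SE 0.21).

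The other 6 of the 10 rose by 0.77 to 0.90. The region 19.5 kb from IER5, an immediate early gene, rose by 0.90 (SE 0.19) on the log2 scale. C10orf143 followed with 0.84 and PRKAG2, a regulatory subunit of AMP-activated kinase, with 0.80, both regions inside the gene. EDEM1, which acts in disposal of misfolded glycoproteins, lay 110 kb from a region that rose by 0.78. The region around the LOC124904554 start lay 46.4 kb from the corepressor gene IRF2BP2 and rose by 0.77 (SE 0.20). The region 78.9 kb from SLC2A9, a urate transporter gene, rose by 0.77 as well.

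**Figure D5:**
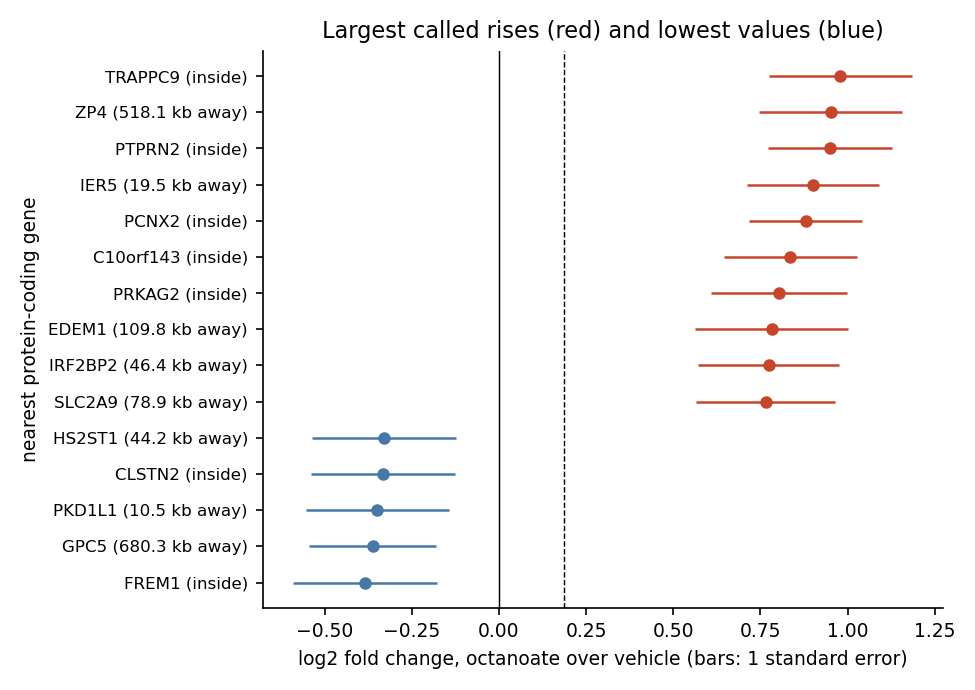
Log2 fold change, octanoate over vehicle (horizontal axis, bars 1 standard error of the deposited table), for the 10 largest rises past the threshold (red) and the 5 lowest values (blue), named by nearest protein-coding gene with its distance (vertical axis). The red values lie between 0.77 and 0.98 and the blue between -0.38 and -0.33; none of the blue passed the test.

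Strong distal regions at the other end did not pass. The 5 lowest log2 fold changes were -0.38 inside FREM1, an extracellular matrix gene, -0.36 nearest to the glypican gene GPC5, -0.35 nearest to PKD1L1, -0.33 inside the calsyntenin gene CLSTN2 and -0.33 nearest to HS2ST1, a heparan sulfate sulfotransferase gene. Their standard errors were 0.18 to 0.21. The lowest adjusted p of any strong distal region below 0 was 0.330 (DESeq2, authors' deposited table), that of the GPC5 region. In all 140 of the 1366 lay below 0, and 533 lay below the tested median.

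Among the 4 highest means apart from mitochondrial copies, 2 regions passed, against 3.22% of all strong distal regions and 1.02% of tested regions. Of the 342 strong distal regions with the highest means, 24 passed (7.02%). The region with the LOC105373480 repeat printed among the start windows (chr2:739819-741091, 62.4 kb from TMEM18) had a mean of 525 and rose by 0.58 (SE 0.11, adjusted p = 0.000119, DESeq2), from an implied 421 to 629. The widest strong distal region of all, chr4:188399888-188410483 with 10596 bp, had a mean of 504 and rose by 0.40 (SE 0.11, adjusted p = 0.0277, DESeq2). It stood 249 kb from TRIML1. The region chr4:49709075-49712047, 647 kb from CWH43, had a mean of 497 and a log2 fold change of -0.22 (SE 0.12), which did not pass. The remaining 1 was the FAM86DP region.

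Of the 44 regions past the threshold, 18 were inside a protein-coding gene and 26 outside. These were 2.82% of the 639 strong distal regions inside genes and 3.58% of the 727 outside. Over all strong distal regions the share was 3.22%, and over all tested regions 1.02%. Further ones were chosen after their values were seen. Some lay inside RYR2, the cardiac ryanodine receptor gene (0.75, SE 0.14, mean 231), and NTM, a cell adhesion gene (0.66, SE 0.13). Others lay inside ALDH1A3, a retinaldehyde dehydrogenase gene (0.76, SE 0.19), and TOP1, encoding topoisomerase I (0.75, SE 0.20). The ALDH1A3 and TOP1 regions had implied vehicle means of 90.9 and 82.0, under the limit on the mean. Both reached that limit through the octanoate group. A region inside PRKCZ, an atypical protein kinase C gene, rose by 0.54 (SE 0.11) at a mean of 451. The region around the LOC124901788 start lay 138 kb from SHH, the Hedgehog ligand gene, and rose by 0.74 (SE 0.15). The region around the LOC124901783 start lay 90.9 kb from INSIG1, which encodes an endoplasmic reticulum protein of sterol control, and rose by 0.48 (SE 0.13). These 2 regions were 744 kb apart. Other pairs past the threshold within 1 Mb were ASB7 and ALDH1A3 (167 kb apart), C10orf143 and LOC124902561 (233 kb), FAM90A26 and SLC2A9 (537 kb) and RYR2 and ZP4 (649 kb), and the closest pair, 27.8 kb apart, was beside IER5.

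Of the 44, 20 (45.5%) lay within 5 Mb of a chromosome end. That stretch held 138 strong distal regions (10.1%), whose median log2 fold change was 0.34, and 20 of them passed (14.5%). Of the 1228 farther in, with a median of 0.23, 24 passed (1.95%). These shares stand beside 3.22% of all strong distal and 1.02% of all tested regions. Of the tested weaker distal regions, 2.60% passed near an end and 1.21% farther in. The median was likewise higher in weaker distal regions near an end, 0.37 against 0.24. Chromosome 1 held 276 strong distal regions (20.2%), against 12.4% of the weaker distal regions and 14.7% of the strong regions near genes, and 12 of the 44. Chromosome 6 held 30 (2.20%), against 4.74% of the weaker ones, and chromosome X 15 (1.10%), against 2.13%. The median on chromosome 1 was 0.26. A375 copy number was not measured here, and its part in where strong regions lie was not tested.

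Strong distal regions seldom stood close together. Joined at a distance commonly used to stitch enhancers, under which the widest gap joined was 12.2 kb, 1247 stood alone, 51 stretches held 2, 3 held 3 and 2 held 4. The stretch nearest to CHD2, a chromatin remodeller gene, held 4 regions over 29.4 kb with log2 fold changes of 0.07 to 0.53, and the stretch at HS1BP3 4 over 23.7 kb with 0.11 to 0.54. The 3 regions at LMNA, the lamin A gene, were alike, with 0.37, 0.39 and 0.41. Those at PTPN14 ran from -0.03 to 0.50 and those at RGS1 from -0.20 to 0.33. None of the 17 regions in these 5 stretches passed the DESeq2 threshold, which 3.22% of all strong distal and 1.02% of tested regions did. By nearest gene, the 1366 belonged to 1011 genes, 770 of them with a single region. CHRM3, a muscarinic receptor gene, had the most, 8, with a median of 0.38, and HHAT, the Hedgehog acyltransferase gene, had 6 with 0.28. The lowest medians among genes with at least 4 were at NFATC2 (-0.07), RGS1 (-0.01), NFIB (0.02) and MEF2C (0.06).

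Of all protein-coding genes, 5.05% were nearest to at least 1 strong distal region, the share to hold beside the gene lists. Their calls stand beside 3.22% of all strong distal regions and 1.02% of all tested regions, and their medians beside 0.24 and 0.19. Of 18 melanocyte lineage genes, 2 had a strong distal region: MITF, the lineage's master regulator, with 0.42 (SE 0.16, adjusted p = 0.178, DESeq2) and EDNRB with 0.19 (SE 0.18). Neither passed. Neural crest and undifferentiated-state genes had 12 regions at 5 of 18 genes, with a median of 0.16. The 4 nearest to JUN, from -0.01 to 0.51, are counted among the immediate early genes as well, and the region nearest to TNC had 0.15. Of these 12, 1 passed, inside EGFR (0.70, SE 0.19), with an implied 89.4 in vehicle, under the limit of 100, and 146 in octanoate, while the other EGFR region, 42.7 kb outside the gene, had 0.26 (SE 0.20). The 4 regions inside NFIB had -0.07, -0.02, 0.05 and 0.24, with SEs of 0.14 to 0.20, and that inside WNT5A had 0.09.

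AP-1 and other immediate early genes, which respond to growth factor and stress signals within minutes, had 12 strong distal regions at 6 of 17 genes. Their median log2 fold change was 0.29, against 0.24 over all strong distal and 0.19 over all tested regions. Of the 12, 2 passed, both beside IER5 and the larger of them with an implied vehicle mean of 88.1, under the limit, against 3.22% of strong distal and 1.02% of tested regions. The IER5 regions stood 11.1, 19.5 and 48.5 kb from the gene with 0.29 (SE 0.13), 0.90 (SE 0.19) and 0.62 (SE 0.17), so the nearest and strongest of the 3 (mean 288) was the one that did not pass. The 4 regions nearest to JUN had 0.31, 0.51, 0.17 and -0.01 in order of growing distance from 30.9 to 119 kb, and none passed. The region inside the ATF3 gene span had 0.41 (SE 0.13, adjusted p = 0.0741, DESeq2), and the 2 near FOS had 0.29 and 0.30.

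ERK feedback genes, which restrain MAP kinase output, had 5 strong distal regions at 4 of 13 genes. Their median was 0.19, from 0.05 near SPRY4 to 0.33 near SPRY2, and 0 passed (DESeq2), also at an unadjusted p under 0.05. Matrix and adhesion genes had 10 regions at 3 of 16 genes, 4 nearest to COL4A1, 2 inside COL4A2 and 4 nearest to TGFB2, with a median of 0.23. The highest was 0.52 (SE 0.19) near COL4A1 and the lowest -0.14 (SE 0.20) near TGFB2, and 0 passed (DESeq2), with 2 of the 10 higher at an unadjusted p under 0.05, against 28.7% of strong distal and 14.8% of tested regions. Fatty acid use genes, the list closest to the treatment, had 0 strong distal regions at 23 genes, beside the share of 5.05% among all protein-coding genes, and 23 weaker ones with a median of 0.31. The weaker regions of the other lists had medians of 0.31 (immediate early), 0.27 (ERK feedback), 0.21 (melanocyte lineage), 0.20 (matrix and adhesion) and 0.15 (neural crest). At an unadjusted p under 0.05 (DESeq2), 5 of 12 immediate early, 2 of 12 neural crest and 1 of 2 melanocyte lineage strong distal regions were higher.

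Markers of the labelled cell type were checked at gene ends. MITF had a region there with a mean of 168, PAX3 58.2, PMEL 34.2, DCT 30.0, SOX10 15.7 and MLANA 14.6, and TYR had none listed. Of the genes of other cell types, MS4A1, EPCAM, CDH1, PECAM1 and CDH5 had none listed, PTPRC had 1 with a mean of 4.68, KRT8 1 with 34.0 and CD3E 1 with 70.1.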

How the data were processed

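ATAC-seq libraries of A375 cells, 2 with octanoate and 2 with vehicle, were grouped by sample title. Per the submitters' processing notes, reads were handled with Trim Galore, cutadapt, FastQC, Bowtie2, Picard, MACS2, bedtools 2.29.1, featureCounts and DESeq2 on hg38. The notes give no order, settings or correction for the Tn5 cut. Replicate handling in peak calling is not given in the sources used here.

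The authors deposited 1 DESeq2 table. The signal in it is read counts per region that the authors scaled and averaged over the 4 libraries before deposit. The log2 fold change, deposited with its standard error, sets octanoate over vehicle. The Wald statistic was deposited as a score. The deposited adjusted p-value equalled Benjamini-Hochberg adjustment over 11185 regions with a mean of at least 63.8 and was 1 elsewhere, so the others were taken as not tested.

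The regions, lists and rules were chosen with earlier results of these data known. Distances used 20033 RefSeq protein-coding genes of GRCh38.p14, and coordinates count from 1. Named regions were the 10 largest rises among those past an adjusted p of 0.05, the 8 highest means, the 5 lowest fold changes, the 3 nearest to the limit on each side and regions of 6 gene lists. Without a genome, motifs were searched only in the 300-base RefSeq start windows, a departure from the plan. Implied group means assume equal groups. Python 3.11.15, pandas 2.3.3, numpy 2.4.6 and scipy 1.17.1 were used, and distances and adjustment were tested on simulated data. The values depend on the authors' scaling, which is not stated, and no depth or counting interval can be given. Alternatives were other call rules, distances, means and subsets of regions.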

Additional observations from a re-analysis of the deposited data

How the results depend on the processing

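The count of 44 regions past the threshold became 115 at an adjusted p under 0.1, 17 under 0.01, 13 with adjustment over all listed regions, 2 after centring on the tested median and 0 when a doubling was also asked for (DESeq2 table, where 392 were higher at an unadjusted p under 0.05). It was 27 at over 50 kb from gene ends, 14 at a mean of 200 or more and 28 at over 10 kb from the ends of RefSeq genes of any type. Every region counted in these settings was higher after octanoate. The set itself went from 1366 to 722, 135 and 781 regions in those 3 settings and to 683 with signal per kb at or above the median. The median log2 fold change of 0.24 became 0.265 at a mean of 200 or more, 0.280 in the denser regions, 0.229 without regions within 5 Mb of a chromosome end, 0.255 without regions of 2 kb or wider, 0.056 relative to the tested median and 0.257 without starts and mitochondrial copies. The difference from weaker distal regions, -0.0014, became 0.021 when the strong set alone was limited to a mean of 200 or more, 0.037 when it alone was limited to its denser regions, and 0.038 as a mean within 4 bins of width. The densest of 4 equal groups of each set had equal medians, 0.30 and 0.30. The difference from strong regions near genes, 0.065, became 0.103 with the distal set alone limited to its denser regions, where the densest of 4 equal groups of each set had 0.30 and 0.23, and 0.00080 among regions outside genes. The share inside genes, 46.8%, became 41.4% at over 50 kb, 55.1% at over 10 kb from the ends of RefSeq genes of any type, 43.0% in the denser regions and 41.1% without starts and mitochondrial copies. The cause of these moves was not tested where it is not the smaller set itself. Leaving out starts with mitochondrial copies, mitochondrial copies alone, or chromosome 1, and asking for an implied mean of 100 or more in both groups, were chosen after seeing the data. The last gave a median of 0.206, a difference from the unaltered weaker set of -0.038 and one from strong regions near genes of 0.039, and it left out regions that were over the limit in 1 group alone. No paired analysis was possible because values per library are missing from the table, and for the same reason no library could be left out.

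All calls rest on 2 libraries a group and on the authors' scaling, under which the median of tested regions stood at 0.19. Whether that shift is a change in the cells or comes from the scaling cannot be told apart in a table of means. The depth of each library is unknown. Regions share libraries, so their counts and medians carry no replicate error.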
